A study of Mus musculus with 6 samples.

Results

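The genes described here encode the proteins of the 2 ribosomes of a mouse cell, the one that works in the cytosol and the one inside mitochondria. Members were the protein-coding genes whose symbols begin with Rpl, Rps or Rplp and a digit (cytosolic, 85 genes, without the Rps6k kinases and without pseudogenes) or with Mrpl or Mrps and a digit (mitochondrial, 78 genes), 163 of 43271 genes in the table. They were measured in primary microvascular endothelial cells, which line the capillaries, from the brain of wild-type C57BL/6 mice. Confluent monolayers were given the vehicle dimethyl sulfoxide alone (DMSO, 3 libraries) or dolutegravir, an inhibitor of the HIV integrase (DTG, 5000 ng/ml, 3 libraries), and both groups were treated for 24 h. All cultures shared strain, genotype and a medium with 5% serum, growth factors, heparin and hydrocortisone. Cells were used at passages 2 to 6, and the passage of a single library was not stated. RNA isolated with TRIzol entered a poly(A) kit that keeps strand. The series title places the study in endoplasmic reticulum stress and the blood-brain barrier.

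A cytosolic ribosome is built in the nucleolus, where RNA polymerase I makes the precursor of its RNAs, and assembly factors join those RNAs with proteins imported from the cytosol. Many messages of cytosolic ribosomal proteins begin with a pyrimidine tract, the 5′ terminal oligopyrimidine (TOP) motif, through which the kinase mTORC1 and the protein LARP1 regulate their translation and stability. The mitochondrial ribosome translates the few proteins of the respiratory chain that mitochondrial DNA encodes; its RNAs come from that DNA, whereas all its proteins are nuclear gene products imported into the organelle. Libraries made with poly(A) selection measure the messages of these proteins and neither the proteins nor the assembled ribosomes.

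Several facts of the libraries bear on what follows. Total counts ranged from 41162353 to 56316335, and at this depth counting error is small for all but rarely counted genes. DMSO replicate 3 stood apart from the other DMSO libraries. It was the lowest of all 6 libraries in 79 of 82 cytosolic and 58 of 78 mitochondrial members, against 22.6% of all genes tested. It also had the highest share of counts from mitochondrial DNA (4.27%, against 2.47% to 3.58% elsewhere). The chi-square per gene between libraries was 49.9 and 40.7 for its pairs, against 20.7 between DMSO replicates 1 and 2. DTG replicate 1 also stood apart from the other DTG libraries. Its pairs had a chi-square per gene of 58.1 and 46.6, against 8.83 between DTG replicates 2 and 3. The part of these differences in the results was not tested. Library names carry an undefined P4 or P5 tag (P4 for DMSO replicate 1 and DTG replicates 2 and 3) and a number that DMSO replicates 1 and 2 share, as do DTG replicates 1 and 2. No label says whether the libraries of a group were separate cultures. The p-values therefore reflect the spread over these libraries alone, and that spread may be technical. Endothelial markers summed to between 13044 and 14368 CPM (counts scaled to a common library size, here from the plain totals) in DMSO and between 7500 and 7965 CPM in DTG. With plain totals the median change of all genes was -0.18 on the log2 scale. Of 12 endothelial markers 8 were called lower in DTG (adjusted p under 0.05, TMM scaling), beside 29.2% of all genes tested. Markers of other cell types were low, the highest being those of astrocytes (59.9 to 68.9 CPM in DMSO and 194 to 232 CPM in DTG, with Gja1 the only one that reached the filter and Aqp4 at 0), those of microglia (24.9 to 31.4 and 5.98 to 7.22 CPM, with C1qa, C1qb and P2ry12 at 0) and those of fibroblasts (6.88 to 8.01 and 7.28 to 8.31 CPM). Neuron markers summed to 0.19 to 0.34 CPM in DMSO and 2.11 to 5.63 CPM in DTG, with Tubb3 the only one that reached the filter (higher in DTG) and Map2 at 0, and pericyte markers reached at most 2.38 CPM. The part of these markers in the results was not tested. In such bulk samples fewer cells of a type and less RNA per cell cannot be told apart.

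The start regions of the genes show how the classes differ in sequence. RefSeq start regions (GRCm38.p6, 250 bases before to 50 from the start; the counts are on another build) matched 65 cytosolic members with 77 starts and 69 mitochondrial members with 75 starts. A C followed by at least 4 C or T letters lay exactly at the start in 18.2% of cytosolic starts, 0% of mitochondrial starts and 2.51% of all 32851 starts. Within 5 bases of the start the shares were 41.6%, 22.7% and 18.3%. The windows below run from 20 bases before to 10 from the start, on the gene's strand, with a run that begins within 5 bases of the start in capitals (for Rps21, which has 2 listed starts, the first). The first 6 belong to cytosolic genes that rose under every setting tried, the next 3 to the cytosolic genes with the lowest change, and the last to the mitochondrial gene with the largest change.
Rpl22l1 (chr3:28805488-28805517, plus strand): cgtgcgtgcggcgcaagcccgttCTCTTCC
Rpl36al (chr12:69184058-69184087, minus strand): gttcgcattcccgtcgctcaggttcagttc
Rpl12 (chr2:32961692-32961721, plus strand): gcgtgggcggagcaggatccgtCTTTTCgg
Rpl18 (chr7:45718051-45718080, plus strand): acgagtgcgtctcgcaggccgCTCTTTCCC
Rplp0 (chr5:115559447-115559476, plus strand): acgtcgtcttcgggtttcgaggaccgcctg
Rps18 (chr17:33955656-33955685, minus strand): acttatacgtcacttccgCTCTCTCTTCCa
Rpl31 (chr1:39367831-39367860, plus strand): cacctcttcctcctcgCCTCCCCgtgaccc
Rps21 (chr2:180257359-180257388, plus strand): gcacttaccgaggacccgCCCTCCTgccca
Rpl37a (chr1:72711240-72711269, plus strand): gtcacttccgctcgccggtctaaaaccgcg
Mrps18b (chr17:35916431-35916460, minus strand): ttccgcattgcggggcgtgtccttggccca

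Runs of pyrimidines stood both among the genes that rose (Rpl22l1, Rpl12, Rpl18, Rps18) and among those with the lowest change (Rpl31, Rps21). Rpl36al and Rplp0 among the former and Rpl37a among the latter had none that began within 5 bases of the start. A second feature was common to both ribosomes. The core of the binding motif of ETS factors (CGGAAG, either strand) occurred in 59.7% of cytosolic and 53.3% of mitochondrial start regions, against 16.9% of all start regions of that length. The YY1 motif AAGATGGCG was in 7.79% and 10.7% of them (1.40% of all) and the E-box CACGTG, a motif of MYC and its relatives, in 10.4% and 9.33% (7.15%). The ATF4 motif TGATGNAAT and the ATF6 motif known as ERSE were in none of the members' start regions, against 0.965% and 0.119% of all. Some of these motifs can overlap one another, and a match is a description of letters, not a bound site.

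Messages for cytosolic ribosomal proteins were higher with DTG by a small amount. Of the 82 members that reached 10 counts in 3 libraries, 62 were higher and 0 lower by edgeR's quasi-likelihood test (adjusted p under 0.05, TMM scaling), where 27.4% of all 14092 genes tested were higher and 29.2% lower. The median change was 0.32 on the log2 scale and the interquartile range 0.26 to 0.40, beside a median of -0.015 for all genes. All members that passed the filter had 10 counts in every library. Without adjustment 66 had p under 0.05 and were higher and 0 were lower, and DESeq2 called 67 higher and 0 lower. In 70 members the DTG libraries all lay above the DMSO libraries, which 31.1% of all genes did. Without DMSO replicate 3, 55 members were higher and 2 lower (Rpl37a, -0.30, adjusted p = 0.0102, and Rps21, -0.17, adjusted p = 0.0472), with a median of 0.24.

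The size of this change depends on how the libraries are scaled. TMM factors were 1.05 to 1.07 in DMSO and 0.933 to 0.956 in DTG, and scaling by library size alone moved the median of all genes by -0.17 (to -0.18). The cytosolic median then was 0.15, with 16 members higher and 1 lower (Rpl37a, -0.34, adjusted p = 0.0245), where 18.1% of all genes were higher and 40.5% lower. The share of members called higher was then near that of all genes, and the share called lower was below it. Among the 16 were Rpl4, Rpl7l1, Rpl12, Rpl18, Rpl22l1, Rpl34, Rpl36al, Rplp0, Rps2, Rps13, Rps18, Rps19bp1, Rps25, Rps26 and Rps27a, and all 16 also stayed higher in all 17 alternatives run. Upper-quartile scaling gave 39 higher and 0 lower.

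**Figure D1:**
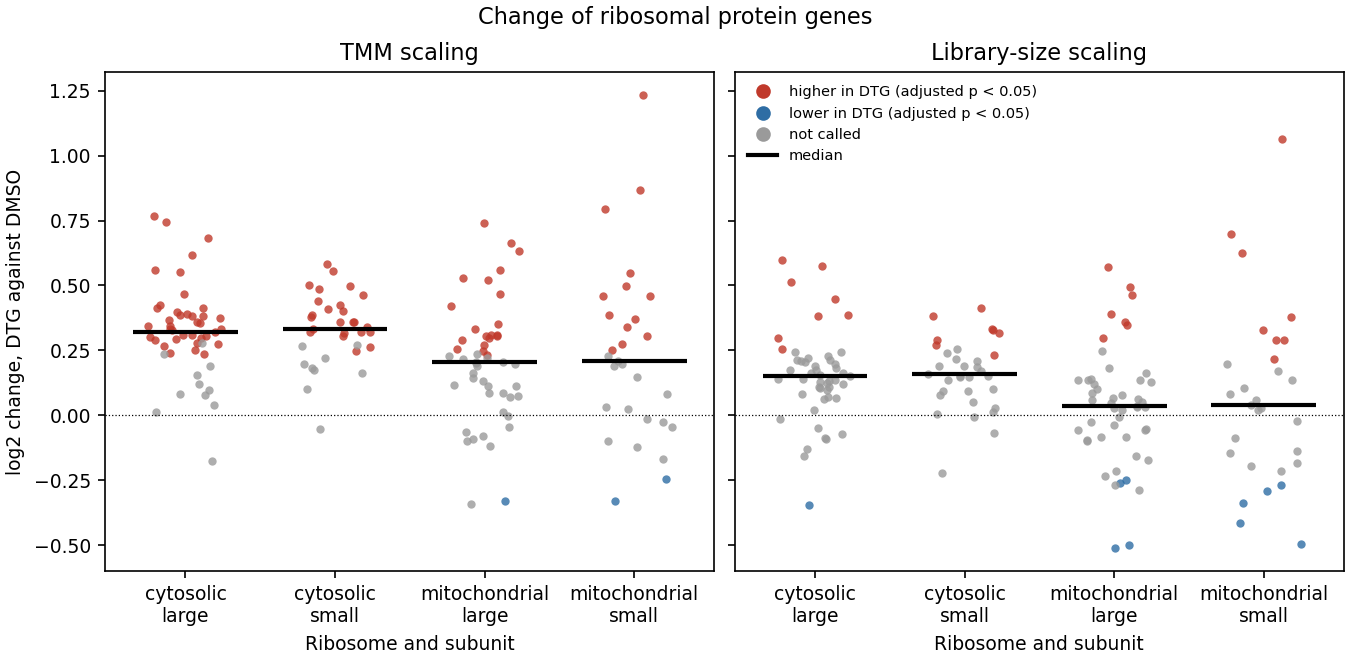
Log2 change (DTG against DMSO, vertical axis) of each member by ribosome and subunit, with TMM scaling on the left and library-size scaling on the right; points are genes coloured by call and bars are medians. The cytosolic medians of both subunits lie near 0.32 on the left and near 0.15 on the right, and the mitochondrial genes spread more widely in both.

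Both subunits of the cytosolic ribosome gave like counts and medians. The large subunit had 38 of 49 members higher with a median of 0.32, and the small subunit 24 of 33 with a median of 0.33. Proteins shared with bacterial ribosomes (25 of 32 higher, median 0.32) and the others (37 of 50, median 0.33) had like medians as well, and neither difference was tested. Within the P4 libraries the median was 0.28 and within the P5 libraries 0.35, and after removal of a trend with length and GC of the transcripts, chosen after seeing the data, it was 0.28.

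Rplp0 carries the stalk, the arm of the large subunit that recruits translation factors, and was the most abundant cytosolic member in DMSO by CPM. Its levels were 1232, 1233 and 995 CPM with vehicle and 1717, 1674 and 1684 CPM with DTG. The DTG libraries all lay above the DMSO libraries, and the log2 change was 0.55 ± 0.10 (SE, adjusted p = 0.000738). Rplp1 and Rplp2 form the dimers that hang from this stalk. Rplp2 had 356, 377 and 305 CPM with vehicle and 446, 443 and 443 CPM with DTG (0.36 ± 0.09, adjusted p = 0.0055). Rplp1 had 592, 621 and 464 CPM with vehicle and 745, 641 and 691 CPM with DTG (0.31 ± 0.11, adjusted p = 0.0377). Both were separated between the groups, with DTG higher. Leaving out DMSO replicate 1, DMSO replicate 3, DTG replicate 1 or DTG replicate 3 cost Rplp1 its call, with an adjusted p between 0.0541 and 0.08.

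Rpl12, at the base of the stalk, had the largest change among cytosolic members shared with bacteria. It had 487, 511 and 425 CPM with vehicle and 721, 784 and 784 CPM with DTG, with no overlap and a change of 0.68 ± 0.09 (adjusted p = 0.000108). Rpl18 had 404, 411 and 314 CPM with vehicle and 527, 565 and 571 CPM with DTG (0.56 ± 0.11, adjusted p = 0.00122). In both genes DMSO replicate 3 was the lowest library and no DTG library reached down to the DMSO range.

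Rpl5 and Rpl11 bind the 5S RNA and, when not built into ribosomes, can hold the p53 ligase Mdm2. Rpl5 had 1104, 1121 and 994 CPM with vehicle and 1246, 1329 and 1369 CPM with DTG and rose by 0.29 ± 0.08 (adjusted p = 0.0116). Rpl11 had 204, 208 and 162 CPM with vehicle and 217, 219 and 218 CPM with DTG and a change of 0.19 ± 0.10 that did not pass (adjusted p = 0.121), although the groups did not overlap. Rps6, the small subunit protein that S6 kinases phosphorylate, had 677, 711 and 574 CPM with vehicle and 803, 835 and 878 CPM with DTG (0.36 ± 0.09, adjusted p = 0.00773). Rps3, at the entry of the messenger channel, had 712, 734 and 593 CPM with vehicle and 839, 849 and 858 CPM with DTG (0.32 ± 0.09, adjusted p = 0.0126). Each of these genes was lowest in DMSO replicate 3, and the calls of Rpl5, Rps3 and Rps6 were lost with library-size scaling, as were 46 of the 62.

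Further genes that stayed higher in every alternative included 2 of the large and 6 of the small subunit. Rpl4, which reaches into the peptide tunnel, had 1051, 1056 and 929 CPM with vehicle and 1268, 1405 and 1403 CPM with DTG (0.42 ± 0.09, adjusted p = 0.00185). Rpl34 had 169, 161 and 128 CPM with vehicle and 201, 218 and 215 CPM with DTG (0.47 ± 0.10, adjusted p = 0.0032). Rps2, at the messenger entry beside Rps3, had 354, 360.3 and 306 CPM with vehicle and 443, 466 and 439 CPM with DTG (0.40 ± 0.08, adjusted p = 0.0021). DMSO replicate 3 was the lowest library in each, and the groups did not overlap. Rps18, in the head of the small subunit, had 539, 587 and 442 CPM with vehicle and 731, 729.9 and 735 CPM with DTG (0.49 ± 0.10, adjusted p = 0.00229). Rps26, at the messenger exit, had 372, 376 and 268 CPM with vehicle and 494, 451 and 492 CPM with DTG (0.50 ± 0.12, adjusted p = 0.00547). Rps27a, made as a fusion with ubiquitin, had 555, 590.1 and 502 CPM with vehicle and 740.1, 787 and 802 CPM with DTG (0.50 ± 0.08, adjusted p = 0.000587). In these genes too DMSO replicate 3 was the lowest library and the groups did not overlap. Rps25, which viral entry sites of translation require, had 307, 307 and 259 CPM with vehicle and 400.0, 402 and 401 CPM with DTG (0.46 ± 0.08, adjusted p = 0.000993), and Rps13 had 297, 305 and 256 CPM with vehicle and 365, 401 and 399 CPM with DTG (0.44 ± 0.09, adjusted p = 0.00164). Over all 62 members called higher, the change ran from 0.23 to 0.77, or 1.18-fold to 1.70-fold with a median of 1.28-fold.

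The 3 most abundant members in DMSO by CPM were Rplp0, Rpl6 and Rpl5. Rpl6 had 1130.4, 1217 and 1011 CPM with vehicle and 1299, 1319.8 and 1348 CPM with DTG (0.24 ± 0.09, adjusted p = 0.0355), and its call was lost on leaving out DMSO replicate 1 (adjusted p = 0.0759), DMSO replicate 3 (0.0621), DTG replicate 2 (0.0581) or DTG replicate 3 (0.0811). Per kilobase of transcript the median level of cytosolic members was 573 CPM in DMSO and 714 CPM in DTG. The same level was 26.9 and 29.2 CPM for mitochondrial members and 11.5 and 11.4 CPM for all genes.

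Among the 20 members that did not pass, changes ran from -0.17 to 0.28. Rpl37a, a zinc-binding protein of the large subunit, had 408, 433 and 318 CPM with vehicle and 361, 323 and 343 CPM with DTG, with overlapping groups and the lowest change (-0.17 ± 0.11, adjusted p = 0.202). Rps21 had 292, 316 and 232 CPM with vehicle and 273, 268 and 268 CPM with DTG (-0.05 ± 0.11, adjusted p = 0.689) and Rpl31, beside the exit of the peptide tunnel, had a change of 0.01 ± 0.10. In both, DMSO replicates 1 and 2 lay above the DTG libraries and DMSO replicate 3 below them. Rps27rt, a near copy of Rps27, ran from 4.26 to 21.4 CPM within DMSO (change 0.27 ± 0.61), and reads of the copies may have been split between them.

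**Figure D2:**
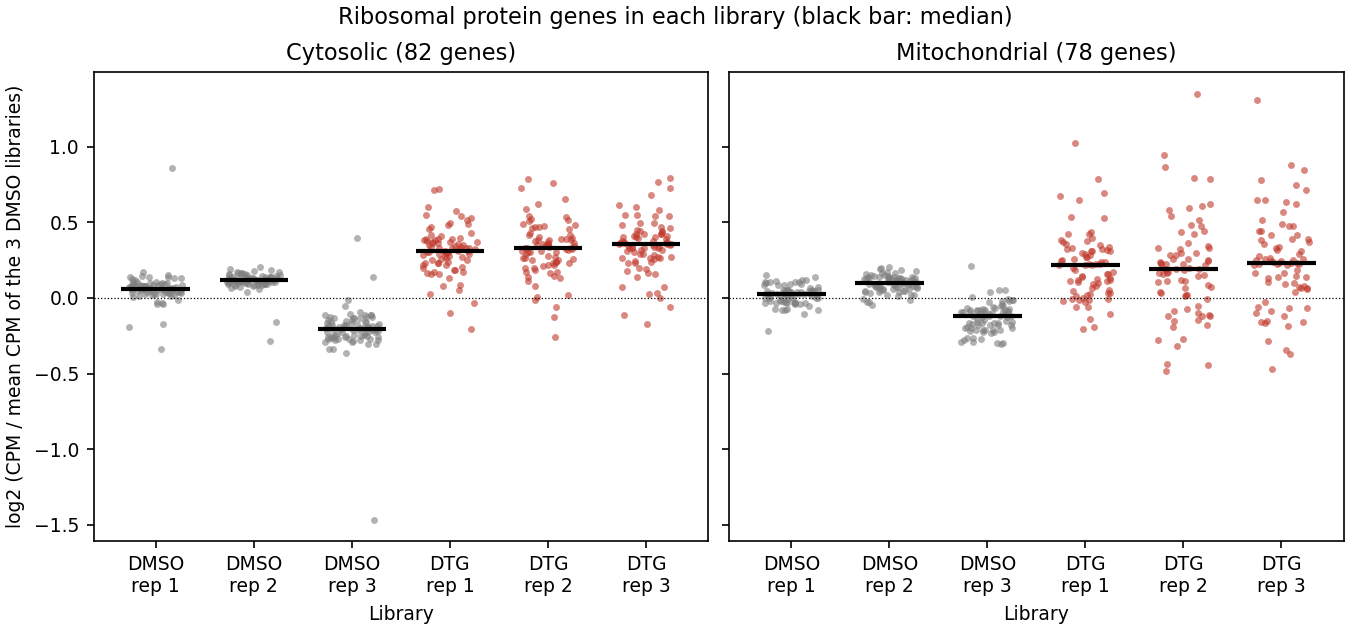
Each member's log2 ratio of CPM to its mean over the 3 DMSO libraries (vertical axis) in each of the 6 libraries, cytosolic on the left and mitochondrial on the right; points are genes and bars are medians. DMSO replicate 3 has the lowest median in both classes (-0.20 and -0.12), and the DTG medians are 0.31 to 0.35 for cytosolic and 0.19 to 0.23 for mitochondrial genes.

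Some cytosolic ribosomal proteins exist as pairs of related genes, of which the second often has restricted or regulated expression. In 3 such pairs the second gene rose while the first did not pass. Rpl22l1, the paralog of Rpl22, had 63.8, 75.2 and 80.2 CPM with vehicle and 121, 126 and 126 CPM with DTG and the largest change of the class (0.77 ± 0.09, adjusted p = 6.31e-05). Rpl22 had 147, 154 and 129.6 CPM with vehicle and 146, 159 and 151 CPM with DTG (0.08 ± 0.08, adjusted p = 0.418). Rpl22l1 supplied 30.3%, 32.8% and 38.2% of the pair's counts in DMSO and 45.2%, 44.3% and 45.6% in DTG, or 33.8% ± 4.1 against 45.0% ± 0.66 (SD, n = 3 each). The groups did not overlap, and the highest DMSO share was that of replicate 3.

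Rpl36al is the relative of Rpl36a. It had 116, 117 and 94.4 CPM with vehicle and 179, 185 and 185 CPM with DTG (0.75 ± 0.09, adjusted p = 7.99e-05), whereas Rpl36a had 222, 240.1 and 189 CPM with vehicle and 229.5, 220.3 and 221 CPM with DTG (0.04 ± 0.09, adjusted p = 0.72). Its share of the pair was 34.3%, 32.8% and 33.2% in DMSO and 43.8%, 45.6% and 45.6% in DTG (33.4% ± 0.76 and 45.0% ± 1.0, SD). Here DMSO replicate 3 lay between the other DMSO libraries. Exact 95% binomial intervals of single libraries spanned at most 2.01 percentage points for the Rpl22 pair and 1.67 for this one, and such intervals cover counting error only.

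Rps27l, a paralog of Rps27 known in human cells as a p53 target, had 73.2, 82 and 69.2 CPM with vehicle and 98, 92.3 and 102 CPM with DTG (0.38 ± 0.08, adjusted p = 0.00324) and Rps27 a change of 0.18 ± 0.10 (adjusted p = 0.153). Its share was 26.7% ± 1.6 in DMSO and 29.3% ± 0.93 in DTG (SD), and the groups overlapped. Rpl7l1, which takes the place of Rpl7 in precursors of the large subunit, had 94.3, 103 and 93.6 CPM with vehicle and 139, 152 and 155 CPM with DTG (0.62 ± 0.08, adjusted p = 9.86e-05). Rpl7 rose by 0.23 ± 0.08 (adjusted p = 0.0284), a call lost on leaving out DMSO replicate 1 (adjusted p = 0.0652) and on leaving out DTG replicate 3 (0.0747). Rpl7l1 made up 10.3% ± 0.37 of that pair in DMSO and 13.0% ± 0.63 in DTG, with no overlap. The difference in change within each pair was described by these shares and not tested.

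**Figure D3:**
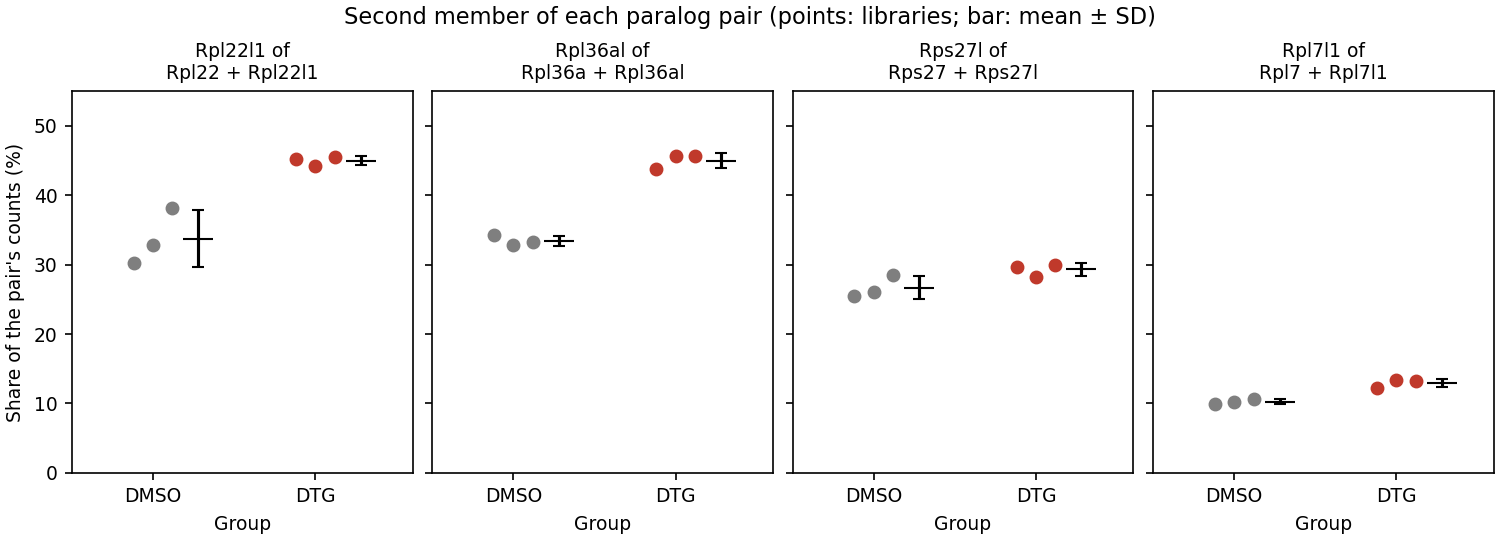
Share of the second gene in the summed counts of 4 paralog pairs (percent, vertical axis) in DMSO and DTG; points are libraries and bars the mean ± SD of 3 libraries. Rpl22l1 and Rpl36al are at 30.3% to 38.2% in DMSO and at 43.8% to 45.6% in DTG, while the ranges of Rps27l overlap.

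The tissue-restricted paralogs stayed at or near 0. Rpl39l had 0 counts in every library, which allows a share of the Rpl39 pair of at most 0.013% to 0.020% (3 counts). Rpl10l had 0 counts over the DMSO libraries and 2 over the DTG libraries. Rpl3l, the striated muscle form of Rpl3, had 19 counts over the DMSO libraries (3, 10 and 6) and 3 over the DTG libraries (1, 0 and 2). These 3 genes were the members that did not reach the filter. Rpl3 itself had 785, 838 and 723 CPM with vehicle and 831, 861 and 861 CPM with DTG (0.12 ± 0.08, adjusted p = 0.215), and Rpl39 a change of 0.08 ± 0.10 (adjusted p = 0.512). Rps4x had 789, 865 and 754 CPM with vehicle and 940.0, 868 and 907 CPM with DTG (0.17 ± 0.08, adjusted p = 0.0927).

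Rpl10 cannot be read alone, because its copy Rpl10-ps3 held 85.8% ± 5.2 of their summed counts with vehicle and 89.2% ± 2.9 with DTG. Rpl10 alone had 109.7, 124 and 183 CPM with vehicle and 120.3, 197 and 128 CPM with DTG (0.10 ± 0.25, adjusted p = 0.761), with overlapping groups. Summed, the pair had 994 ± 82.9 CPM in DMSO and 1373 ± 57.2 CPM in DTG (SD, n = 3), a sum added after seeing the data. Rps19bp1, which matches the symbol pattern but encodes a protein that binds Rps19 and regulates the deacetylase Sirt1, had 15, 15.4 and 12.6 CPM with vehicle and 20.6, 22 and 21.9 CPM with DTG (0.58 ± 0.10, adjusted p = 0.000719).

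Genes of cytosolic ribosomal proteins with other symbols included 3 that lay in the same range. Rpsa, the laminin receptor protein of the small subunit, rose by 0.37 ± 0.09 (adjusted p = 0.00698). Rack1, a scaffold on the head of the small subunit, rose by 0.37 ± 0.09 (adjusted p = 0.00622), and Fau, whose product is cleaved into eS30, rose by 0.39 ± 0.13 (adjusted p = 0.025). With library-size scaling 0 of these 3 genes passed, with changes of 0.20, 0.20 and 0.22 in the same order.

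Mitochondrial ribosomal protein genes had a smaller median change and a wider spread. All 78 members passed the filter, and 33 were higher and 3 lower (edgeR, adjusted p under 0.05), beside 27.4% and 29.2% of all genes. Their median change was 0.21 and their range -0.34 to 1.23. The standard deviation of the changes over members was 0.28, against 0.16 for the cytosolic class. Groups did not overlap in 42 members with DTG higher and in 4 with DTG lower (31.1% and 33.1% of all genes). Without DMSO replicate 3 the counts were 31 and 5 and the median was 0.14. With library-size scaling they were 15 and 9 (18.1% and 40.5% of all genes) and the median was 0.039. The share called higher was then near that of all genes, and the share called lower was below it. Within the P4 libraries the median was 0.19 and within the P5 libraries 0.21.

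The mitochondrial subunits were alike in count and median but not in the extremes. The large subunit by symbol had 20 higher and 1 lower of 49 (median 0.21, range -0.34 to 0.74), and the small subunit 13 higher and 2 lower of 29 (median 0.21, range -0.33 to 1.23). Proteins with bacterial homologues had 20 higher and 1 lower of 47, and proteins particular to mitochondrial ribosomes 13 higher and 2 lower of 31. The symbol does not always give the place: Mrps18a and Mrps30 products sit in the large subunit, and the Mrps36 product is now counted as part of a dehydrogenase complex. Mrps36 had a change of -0.03 ± 0.10 (adjusted p = 0.85) and Mrps30 of 0.20 ± 0.09 (adjusted p = 0.0815).

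**Figure D4:**
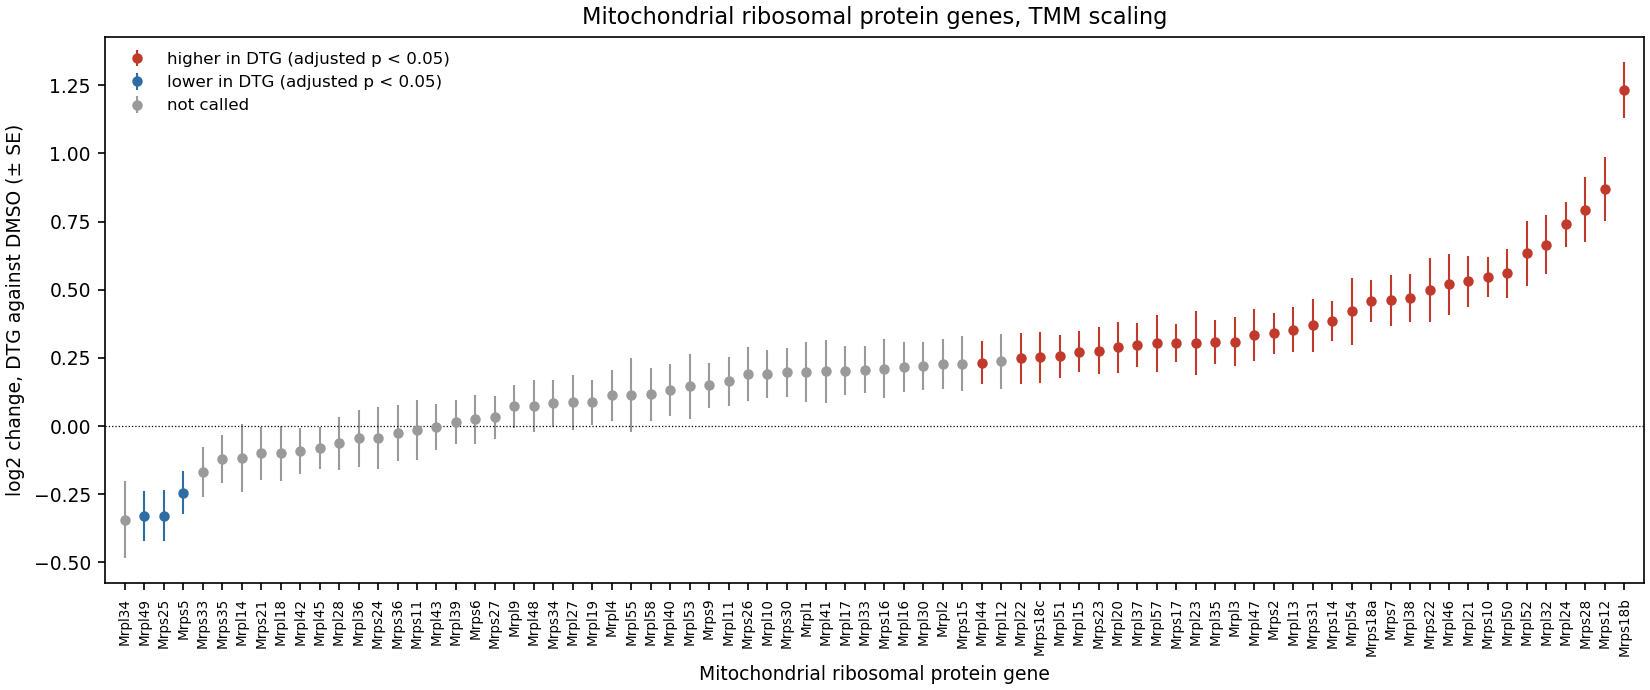
Log2 change (DTG against DMSO, vertical axis) ± SE of the 78 mitochondrial members in rising order, coloured by call. Most lie between 0 and 0.56, Mrps18b stands above all others at 1.23, and the 3 genes called lower, together with Mrpl34, lie at the left end.

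Mrps18b had the largest change of all members of both ribosomes. Its levels were 24.7, 25 and 22 CPM with vehicle and 48.6, 61 and 59.3 CPM with DTG. Every DTG library was above every DMSO library, and the change was 1.23 ± 0.10 (adjusted p = 6.37e-06), a 2.35-fold increase. Mouse has 3 relatives of the bacterial protein S18, each taking its own place in the mitochondrial ribosome. Mrps18a had 29.9, 31.8 and 28.4 CPM with vehicle and 40.2, 42 and 41.8 CPM with DTG (0.46 ± 0.08, adjusted p = 0.000624). Mrps18c had 29.5, 32.9 and 28 CPM with vehicle and 33.9, 34.3 and 39.5 CPM with DTG (0.25 ± 0.09, adjusted p = 0.0426), a call lost on leaving out DMSO replicate 1 (adjusted p = 0.111), DMSO replicate 3 (0.105) or DTG replicate 3 (0.148). All of them were higher, and the differences between them were not tested. The 250 bases before the Mrps18b start (chr17:35916441-35916690, GRCm38.p6, minus strand) are shown because this gene led the class; capitals mark CTTCCG, the ETS core read on the other strand.
Mrps18b: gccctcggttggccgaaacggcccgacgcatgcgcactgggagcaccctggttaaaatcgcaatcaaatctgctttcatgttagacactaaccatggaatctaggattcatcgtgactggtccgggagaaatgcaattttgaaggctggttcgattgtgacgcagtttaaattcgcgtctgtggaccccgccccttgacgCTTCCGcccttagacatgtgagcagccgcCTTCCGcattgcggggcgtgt

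Next came Mrps12, a protein of the decoding centre, with 13.6, 13.8 and 10.46 CPM with vehicle and 21.7, 24.3 and 23.1 CPM with DTG (0.87 ± 0.12, adjusted p = 0.000142). Mrps28 had 11.7, 13.4 and 10.05 CPM with vehicle and 18.7, 21.4 and 21 CPM with DTG (0.79 ± 0.12, adjusted p = 0.000274). Mrps10, in the head of the small subunit, had 41.6, 37.8 and 37.6 CPM with vehicle and 56.4, 56.7 and 57.7 CPM with DTG (0.55 ± 0.07, adjusted p = 0.00016). These small subunit genes were separated between the groups, and in Mrps12 and Mrps28 DMSO replicate 3 was again the lowest library.

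In the large subunit Mrpl24 had 60.1, 61.5 and 53.6 CPM with vehicle and 91.5, 101 and 100.3 CPM with DTG (0.74 ± 0.08, adjusted p = 3.98e-05). Mrpl32, a zinc-binding protein that a mitochondrial protease matures, had 14.9, 16 and 16.4 CPM with vehicle and 21.3, 27.2 and 26.4 CPM with DTG (0.66 ± 0.11, adjusted p = 0.00048). Mrpl52 had 18.2, 20.1 and 14.2 CPM with vehicle and 28.3, 26.5 and 26.9 CPM with DTG (0.63 ± 0.12, adjusted p = 0.00132). For Mrpl32 and Mrpl50 DMSO replicate 3 was the highest of the DMSO libraries, and both still lay below DTG. Mrpl50 had 20.2, 21.5 and 22 CPM with vehicle and 28.4, 32.3 and 33.2 CPM with DTG (0.56 ± 0.09, adjusted p = 0.000438).

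Beside these 8, the genes Mrpl21, Mrpl38, Mrpl46, Mrps7, Mrps14, Mrps18a and Mrps22 were higher in all 17 alternatives, 15 in all. Their changes ran from 0.39 (Mrps14) to 0.53 (Mrpl21). Mrpl21 had 32.1, 33.1 and 29.4 CPM with vehicle and 40.7, 47.1 and 48.9 CPM with DTG (0.53 ± 0.09, adjusted p = 0.000732). Mrpl38 had 32.8, 31.8 and 27.4 CPM with vehicle and 44.2, 41.4 and 41.5 CPM with DTG (0.47 ± 0.09, adjusted p = 0.00123). Mrps7, on which the head of the small subunit is built, had 47.9, 50.6 and 40.5 CPM with vehicle and 60.8, 64.3 and 66.2 CPM with DTG (0.46 ± 0.09, adjusted p = 0.0018). Each of these was separated between the groups, with DMSO replicate 3 the lowest library. Mrps14 had 33.2, 34.9 and 33.5 CPM with vehicle and 44.1, 43.6 and 45.1 CPM with DTG (0.39 ± 0.07, adjusted p = 0.00114) and Mrps22, a protein found only in mitochondrial ribosomes, had 11.4, 12.6 and 11.2 CPM with vehicle and 14.7, 15.9 and 19.2 CPM with DTG (0.50 ± 0.12, adjusted p = 0.00458). In both, the DMSO libraries lay close together and below all DTG libraries. Over all 33 members called higher, the change ran from 0.23 to 1.23, or 1.17-fold to 2.35-fold with a median of 1.29-fold. The 42 members that did not pass ran from -0.34 to 0.24.

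The genes called lower were Mrpl49, Mrps25 and Mrps5. Mrpl49 had 44, 48.8 and 42.1 CPM with vehicle and 39.4, 33.2 and 34.7 CPM with DTG (-0.33 ± 0.09, adjusted p = 0.0115). Mrps25 had 33.8, 36.8 and 32.1 CPM with vehicle and 29.7, 25.2 and 26.9 CPM with DTG (-0.33 ± 0.09, adjusted p = 0.0115). Mrps5, a protein of the decoding region of the small subunit, had 55.5, 57.9 and 54.3 CPM with vehicle and 50.9, 45 and 45.9 CPM with DTG (-0.24 ± 0.08, adjusted p = 0.0215). In each the DTG libraries lay below the DMSO libraries, with DTG replicate 1 nearest to them. Without DMSO replicate 2, DTG replicate 2 or DTG replicate 3 none of them passed by edgeR, with adjusted p from 0.0553 to 0.0729 for Mrpl49, from 0.0547 to 0.0757 for Mrps25 and from 0.0763 to 0.142 for Mrps5. Mrpl34 had the lowest change of the class (-0.34 ± 0.14) with 17.6, 17.9 and 13.5 CPM with vehicle and 15.2, 11.7 and 11.8 CPM with DTG and did not pass (adjusted p = 0.0605). Its DMSO replicate 3 lay among the DTG libraries, and without DMSO replicate 3 it was -0.46 (adjusted p = 0.0203).

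The 3 most abundant mitochondrial members in DMSO were Mrpl17, Mrps17 and Mrpl33 by CPM. Mrps17 had 66.7, 71.6 and 67.9 CPM with vehicle and 87.7, 83.8 and 83.3 CPM with DTG (0.31 ± 0.07, adjusted p = 0.0041). Mrpl17 had 92.8, 99.1 and 79.98 CPM with vehicle and 101, 104 and 109 CPM with DTG (0.20 ± 0.09, adjusted p = 0.0744) and Mrpl33 63.7, 71.1 and 59.3 CPM with vehicle and 79.6, 73 and 71.6 CPM with DTG (0.21 ± 0.09, adjusted p = 0.065). Mrpl12, the counterpart of the bacterial stalk protein, had 51.7, 56.4 and 43.4 CPM with vehicle and 61.7, 56.6 and 60.4 CPM with DTG (0.24 ± 0.10, adjusted p = 0.064). In the last 3 genes the groups did not overlap although the test did not pass. Without DMSO replicate 2 each of the last 3 passed, at an adjusted p of 0.0417, 0.0307 and 0.0288. Gadd45gip1, a subunit of the mitochondrial ribosome outside the symbol pattern, rose by 0.30 ± 0.10 (adjusted p = 0.0259). The other 4 genes of this kind (Ptcd3, Chchd1, Dap3, Aurkaip1) had changes from 0.04 to 0.20 and did not pass, though leaving out DMSO replicate 3 (adjusted p = 0.0283) and leaving out DTG replicate 1 (0.0123) let Ptcd3 pass and leaving out DMSO replicate 2 did so for Chchd1 (0.0444).

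Set against each other within a library, the classes give a ratio that no scaling touches. The share of each class in all counts, in contrast, depends on the other genes counted. Cytosolic members took 3.86%, 3.99% and 3.20% of all counts with vehicle and 4.11%, 4.06% and 4.14% with DTG (3.69% ± 0.42 and 4.10% ± 0.043, SD, n = 3 each). Mitochondrial members took 0.274%, 0.287% and 0.245% in DMSO and 0.281%, 0.271% and 0.281% in DTG (0.269% ± 0.021 and 0.278% ± 0.0056). Exact 95% binomial intervals of these shares spanned at most 0.011 and 0.0030 percentage points. Counts of the cytosolic class were 14.1, 13.9 and 13.1 times those of the mitochondrial class in DMSO and 14.6, 14.9 and 14.7 times in DTG (13.7 ± 0.54 and 14.8 ± 0.16). The DTG libraries all lay above the DMSO libraries in this ratio, whose DTG mean was 1.08 times the DMSO mean, and 1.05 times without DMSO replicate 3. The cytosolic share was also highest in DTG in all 3 libraries, with a mean 1.11 times that of DMSO, and 1.04 times without DMSO replicate 3, whereas the mitochondrial shares overlapped and their difference of 0.0092 points turned to -0.0027 without DMSO replicate 3.

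Members were also set beside the genes that start next to them. Of the members with a start region, 10 cytosolic genes had a start of another tested gene on the opposite strand within 500 bases upstream. In 3 of these pairs both genes were higher, and in 1 the member was higher and the partner lower (Rpl12 at 0.68 and Lrsam1 at -0.28). In 3 only the member passed, and in 3 the member did not pass. Of the 10 partners 3 were higher and 2 lower, beside 27.4% and 29.2% of all genes tested. Rpl36al and Mgat2, whose starts lie 91 bases apart, changed by 0.75 and 0.71. Of 22 mitochondrial genes with such a partner (Mrpl46 and Mrps11 being each other's), 3 were higher together with it, 3 were higher with the partner lower, 4 were higher alone, 2 were lower and 10 did not pass. Of the 22 partners 8 were higher and 7 lower. Mrpl21 and Ighmbp2 (32 bases apart) changed by 0.53 and 0.55. Whether members and partners changed together was not tested.

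For 3 pairs with unlike changes the bases between the starts are shown (GRCm38.p6, strand of the first gene). Mrpl46 and Mrps11, large and small subunit genes with starts 42 bases apart (chr7:78783090-78783130 between them), had 19.7, 20.2 and 18.1 CPM with vehicle and 23.3, 29.7 and 30.3 CPM with DTG for Mrpl46 and 21.1, 20.6 and 17.1 CPM with vehicle and 21.3, 18.1 and 18.8 CPM with DTG for Mrps11. Mrpl46 rose by 0.52 ± 0.11 (adjusted p = 0.00269), and Mrps11 had a change of -0.01 ± 0.11 (adjusted p = 0.92). Mrpl49 was lower (-0.33) and its neighbour Fau, a ribosomal protein of the cytosol, was higher (0.39; chr19:6057756-6057946). Mrps12 was higher (0.87) beside Sars2, the mitochondrial seryl-tRNA synthetase, at 0.03 ± 0.10 (adjusted p = 0.838; chr7:28741822-28741967). The differences within pairs were not tested, and none of the 3 stretches holds the ETS core.
Mrpl46 to Mrps11: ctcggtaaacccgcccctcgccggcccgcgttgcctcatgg
Mrpl49 to Fau: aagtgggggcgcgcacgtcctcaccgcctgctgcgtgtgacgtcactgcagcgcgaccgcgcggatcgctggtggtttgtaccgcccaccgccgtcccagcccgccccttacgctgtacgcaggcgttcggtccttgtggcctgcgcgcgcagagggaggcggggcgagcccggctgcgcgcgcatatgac
Mrps12 to Sars2: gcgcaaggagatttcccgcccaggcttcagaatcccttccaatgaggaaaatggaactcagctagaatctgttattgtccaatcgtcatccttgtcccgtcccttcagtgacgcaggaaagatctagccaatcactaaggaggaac

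Assembly factor genes of the cytosolic ribosome had larger median changes than its protein genes (0.32), a difference that was not tested. Of 41 assembly factors of the small subunit 39 were higher and 0 lower (edgeR; 40 and 0 without adjustment, 39 and 0 by DESeq2), beside 27.4% and 29.2% of all genes, with a median of 0.72. For the large subunit 41 of 46 were higher and 0 lower (41 higher without adjustment and by DESeq2), with a median of 0.63. With library-size scaling 37 of each list were higher (18.1% of all genes). Pno1, which guides late maturation of the small subunit, had 41.8, 43.5 and 42.6 CPM with vehicle and 90.5, 113 and 109 CPM with DTG (1.29 ± 0.09, adjusted p = 2.78e-06). Tsr1 had a change of 1.11 ± 0.10 and Wdr46 of 0.96 ± 0.09. Gnl3 (nucleostemin), a nucleolar GTPase, had 29.6, 31.9 and 33.7 CPM with vehicle and 80.2, 84.3 and 87.6 CPM with DTG (1.41 ± 0.08, adjusted p = 6.43e-07), Rpf2, which brings the 5S particle into the large subunit, a change of 1.09 ± 0.10 and the RNA methyltransferase Ftsj3 one of 0.93 ± 0.09. Both lists together took 0.421% ± 0.0046 of a DMSO library's counts and 0.590% ± 0.040 of a DTG library's (SD, n = 3).

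Of 11 genes of RNA polymerase I and its initiation factors 10 were higher and 0 lower, beside 27.4% and 29.2% of all genes. Their median was 0.38, and 10 were higher without adjustment and by DESeq2. With library-size scaling 4 of these genes of RNA polymerase I and its factors were higher, beside 18.1% of all genes. Its largest subunit gene Polr1a had 79.7, 72.6 and 76.7 CPM with vehicle and 104, 116 and 112 CPM with DTG (0.54 ± 0.08, adjusted p = 0.000199), and the initiation factor genes Taf1d and Taf1b had changes of 0.46 ± 0.09 and 0.41 ± 0.09. Host genes of small nucleolar RNAs, which guide modification of ribosomal RNA, were higher in 10 of 12 and in 9 with library-size scaling (median 0.83 with TMM). Among them were Snhg1 (1.13 ± 0.10), Snhg17 (0.87 ± 0.08) and Eif4a1 (0.92 ± 0.09). Other genes whose messages carry the TOP motif were higher in 9 and lower in 1 of 18 (median 0.21). With library-size scaling 2 were higher and 2 lower, both below the shares over all genes (18.1% and 40.5%). Btf3, of the complex that shields new peptides, rose by 0.51 ± 0.08, and Eef1d and Eef1b2, exchange factors of elongation, by 0.49 ± 0.08 and 0.35 ± 0.09.

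Genes that make or serve the mitochondrial ribosome were mixed. Of 28 assembly factors 12 were higher and 1 lower (median 0.10; 8 and 4 with library-size scaling), beside 27.4% and 29.2% of all genes (18.1% and 40.5% with library-size scaling). The gene called lower, Mrm3, methylates the large mitochondrial ribosomal RNA and had 76.9, 83.3 and 70.4 CPM with vehicle and 32.2, 29 and 31.3 CPM with DTG (-1.32 ± 0.09, adjusted p = 1.56e-06). The protease gene Clpp had 28.4, 30.7 and 21.7 CPM with vehicle and 43.5, 45.4 and 45.7 CPM with DTG (0.73 ± 0.12) and Gtpbp10, a GTPase of large subunit assembly, a change of 0.59 ± 0.09. Of 15 translation factors 5 were higher and 1 lower (median 0.095), a share of higher genes near that of all genes, and with library-size scaling 1 was higher and 3 lower (median -0.075). Named by the smallest p were Lrpprc, which stabilises mitochondrial messages (0.40 ± 0.07), the release factor gene Mtrf1l (0.38 ± 0.09) and Oxa1l, the inner membrane insertase (-0.36 ± 0.10). The call of Oxa1l was lost without DMSO replicate 2, DTG replicate 2 or DTG replicate 3 (adjusted p of 0.0611, 0.0674 and 0.0502). Of 13 messages of mitochondrial DNA 2 were higher and 1 lower (median 0.45), fewer than the share over all genes in both directions: mt-Nd2 (0.78 ± 0.21), mt-Co3 (0.61 ± 0.22) and mt-Co1 (-0.53 ± 0.15, 9676, 12497 and 15000.3 CPM with vehicle and 9586, 7947 and 8194 CPM with DTG). Leaving out DTG replicate 2 or 3 cost mt-Co1 its call (adjusted p of 0.0504 and 0.0503), leaving out DMSO replicate 2 that of mt-Nd2 (0.0508), and leaving out any library but DMSO replicate 3 that of mt-Co3 (0.071 to 0.122). Without DMSO replicate 3, the library with the highest share of such counts, 9 of the 13 were higher and 1 lower with a median of 0.89 (28.5% and 29.1% of all genes), and with library-size scaling 1 was higher and 2 lower.

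**Figure D5:**
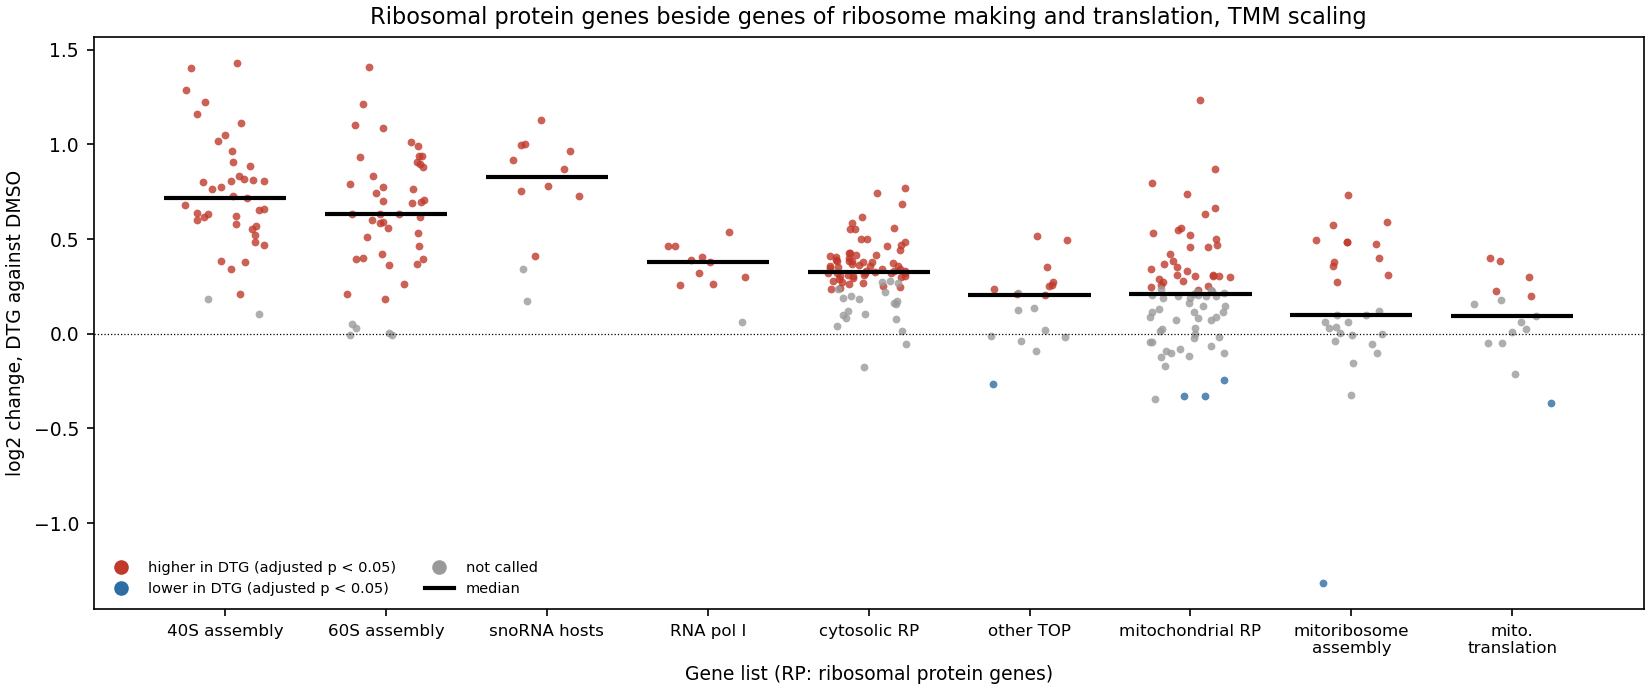
Log2 change (DTG against DMSO, TMM scaling, vertical axis) of ribosomal protein genes beside lists of related genes; points are genes coloured by call and bars are medians. Medians run from 0.83 (snoRNA host genes), 0.72 and 0.63 (assembly factors) over 0.32 (cytosolic) and 0.21 (mitochondrial) to 0.10 and 0.095 for mitochondrial assembly and translation factors.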

How the data were processed

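RNA of 6 libraries (DMSO and DTG, 3 each) was measured by poly(A) RNA-seq. The authors deposited raw counts per Ensembl gene, on GRCm39 per the submitters' processing notes; not given in the sources used here are aligner, counter, strand setting and annotation. All 6 columns were used, and that of DTG replicate 1, spelled DIG, was matched by the rest of its name. A reference table gave symbols for 89.2% of identifiers; the others held 0.33% to 0.49% of the counts of a library.

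Genes with 10 counts in at least 3 libraries were tested by edgeR 4.0.16 (R 4.3.3, TMM, robust quasi-likelihood F-test, group as the only term) with Benjamini-Hochberg adjustment over all genes tested and a threshold of 0.05. Unless another tool is named, adjusted p-values come from this fit, and standard errors are the log2 change over the root of F. CPM, other than summed markers, are relative to TMM-scaled library sizes. Total counts and intervals cover counting error only. Transcript length and GC content came from a reference of another build, by gene identifier; start regions came from RefSeq. The fit was tested on simulated counts.

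Members and lists were chosen with earlier results of these data known. Named were, per class, the 8 largest called changes each way with separated groups, the 3 most abundant members, members below the filter, paralog pairs, 14 fixed genes and the 3 smallest p of each other list; other genes named were chosen after their values were seen. Not every gene that this rule selects is reported here. Of 417 list entries 412 matched. Alternatives were DESeq2 1.42.0, limma-voom (limma 3.58.1), other scalings, filters and thresholds, no robust estimation, the P tag as a term, a replicate block and leaving out each library.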

Additional observations from a re-analysis of the deposited data

How the results depend on the processing

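With library-size scaling 16 cytosolic members were higher and 1 lower (median 0.15), and 15 mitochondrial members were higher and 9 lower (median 0.039). Of all genes 18.1% then were higher and 40.5% lower, so the shares of members called higher were near that of all genes. Upper-quartile scaling gave 39 cytosolic members higher, 5 mitochondrial members lower and a mitochondrial median of 0.12. At an adjusted p under 0.01, 36 cytosolic and 21 mitochondrial members were higher and 0 mitochondrial members lower. Without a filter 1 cytosolic member, Rpl3l, was lower. Leaving out 1 library gave 0 to 2 cytosolic and 0 to 5 mitochondrial members lower. The cause of these differences was not tested. Neither median changed sign, and no call reversed among the 81 tested genes named by the rule given above. Of these 67 passed and 45 did so in all 17 alternatives, and 16 lost the call with library-size scaling. Genes named outside that rule were not in this count. Among them Rpl37a, Rps21 and Mrpl34, which did not pass in the main fit, each passed as lower in an alternative. The replicate block gave 59 cytosolic members higher and 0 lower and 30 mitochondrial members higher and 4 lower. Libraries with the same replicate number did not deviate together (correlations -0.28, 0.0054 and -0.050 for replicates 1, 2 and 3). Replicate numbers were therefore not taken as pairs. Of these pairs only replicate 3 also shares the number in the library names. With 3 libraries a group, small changes near the threshold cannot be settled.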

Other observations

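Genes that handle stalled ribosomes were higher in 14 and lower in 1 of 21 (edgeR, adjusted p under 0.05; 11 and 1 with library-size scaling), beside 27.4% and 29.2% of all genes (18.1% and 40.5% with library-size scaling), and had a median of 0.40. The helicase gene Ascc3 and its partner Ascc2, which pull apart collided ribosomes, had 61.8, 59.6 and 74.1 CPM with vehicle and 120.1, 136 and 135 CPM with DTG and 104, 97.1 and 93.2 CPM with vehicle and 169, 243 and 232 CPM with DTG (changes of 1.00 ± 0.10 and 1.13 ± 0.13, adjusted p = 1.8e-05 and 4.08e-05). Pelo, which opens stalled ribosomes for recycling, had 12.9, 13.1 and 11.1 CPM with vehicle and 20.6, 23.3 and 22.1 CPM with DTG (0.83 ± 0.10, adjusted p = 6.92e-05). In all of these the DTG libraries lay above the DMSO libraries.

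Among 27 regulators of TOP messages and of mTORC1, 11 were higher and 6 lower, beside 27.4% and 29.2% of all genes. With library-size scaling 8 were higher and 13 lower, beside 18.1% and 40.5% of all genes. Eif4ebp1, a repressor of cap-dependent initiation, had 34.6, 32 and 24.7 CPM with vehicle and 92.2, 122 and 121 CPM with DTG (1.87 ± 0.14, adjusted p = 4.27e-06). Sesn1 and Castor1, whose products inhibit mTORC1 when amino acids are short, had 45.5, 45.7 and 41.6 CPM with vehicle and 12.3, 10.4 and 12.2 CPM with DTG (-1.93 ± 0.10) and 50.1, 47.4 and 36.2 CPM with vehicle and 12.6, 12.9 and 12.1 CPM with DTG (-1.83 ± 0.12). Of 19 transcription factors of ribosomal and mitochondrial genes 4 were higher and 4 lower, and with library-size scaling 2 and 9, which is near the shares over all genes. The 3 smallest p were those of the MAX partners Mxd4 and Mxd3, which oppose MYC at shared sites (-1.59 ± 0.07 and -1.49 ± 0.17), and of the coactivator gene Pprc1 (0.85 ± 0.08). Of 9 genes listed for the link between ribosomal proteins and p53, 3 were higher and 2 lower, and 3 and 4 with library-size scaling. These counts are near the shares over all genes. Mdm2 (0.41 ± 0.08) and Cdkn1a (0.51 ± 0.07) were higher, and Sesn1, the largest change of this list, was lower (values above).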
